A study of Mus musculus with 9 samples.

Results

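The secreted and membrane-bound metalloproteases of the extracellular matrix and their natural inhibitors were compared between medulloblastomas and normal cerebellum of the mouse. The genes were chosen by symbol: every listed gene whose name begins with Mmp, Adam, Adamts or Timp followed by a digit. The rule made no use of a gene's level, but it was set with earlier results of these data known. It took 79 of 23360 listed genes. Of these, 23 were Mmp genes (matrix metalloproteinases), 33 Adam genes, 19 Adamts genes and 4 Timp genes (tissue inhibitors of metalloproteinases). The 9 libraries of ribosomal-RNA-depleted RNA came from 3 tumours with the genotype Math1-cre;A1G;Ptch1+/- (A1G tumours below) and 3 tumours with the genotype Ptch1+/- (Ptch1 tumours), both on a mixed strain background and labelled SHH medulloblastoma, and from 3 wild-type adult cerebella of strain C57BL/6. Both tumour kinds thus carried the Ptch1 mutation, and Math1-cre, a Cre recombinase driven from a gene of granule neuron progenitors, and A1G, which the labels do not spell out, were the alleles by which they differed. Ages of the tumour-bearing mice are not given in the sources used here. Tissue, genotype and strain differ together between tumours and cerebellum, and age may differ too, so these cannot be told apart.

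Metalloproteases of these families hold a zinc ion in the active site and cut proteins outside the cell. Matrix metalloproteinases degrade collagens, laminins and proteoglycans. ADAM proteins sit in the cell membrane and release the outer part of other membrane proteins such as Notch ligands, growth factors and adhesion molecules, and ADAMTS proteins are secreted enzymes that process procollagen and cut the large proteoglycans around neurons. TIMP proteins block these enzymes by occupying the zinc site. In the developing cerebellum these proteins act at the surface and in the matrix around migrating granule neurons, and several ADAM proteins without enzyme activity serve in the adult brain as receptors for the secreted LGI proteins at synapses and axons.

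The sequence at the zinc site divided the ADAM genes, and it is shown because the members that fell in tumours lay on both sides of the division. A search of the coding sequences in the GENCODE M21 annotation of mm10 looked for the zinc-binding motif, which is histidine and glutamate, a further histidine after 2 more residues and a last histidine after 5 more residues. It was present in 11 of 11 tested Mmp genes, 18 of 18 tested Adamts genes and 9 of 13 tested Adam genes. Adam11, Adam22, Adam23 and Adam4 lacked it. The lines below give the 33 coding bases at that place, 5′ to 3′, with the codons at the 3 zinc-binding positions in capitals. In the first 4 genes every capital codon encodes histidine, as CAT or CAC.
Adam10, chr9:70754296-70761585, plus strand: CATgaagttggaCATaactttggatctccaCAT
Adam17, chr12:21336732-21336764, minus strand: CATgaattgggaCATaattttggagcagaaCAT
Adam9, chr8:24990326-24990358, minus strand: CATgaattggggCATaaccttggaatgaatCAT
Adam15, chr3:89344780-89344812, minus strand: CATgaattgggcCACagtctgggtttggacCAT
Adam22, chr5:8143064-8143096, minus strand: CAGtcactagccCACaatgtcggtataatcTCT
Adam11, chr11:102773613-102773645, plus strand: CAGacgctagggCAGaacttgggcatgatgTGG
Adam23, chr1:63547763-63547795, plus strand: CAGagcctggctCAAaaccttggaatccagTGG
The Adam10 stretch runs over the junction of exons 9 and 10, and the others each lie in 1 exon. In Adam22 and Adam23 the place was found by protein alignment to Adam9, and in Adam11 by alignment to Adam22. Adam22 kept 1 histidine codon of 3, and Adam11 and Adam23 kept 0. Adam4 had histidine codons at all 3 positions but no glutamate codon after the first. The proteins of Adam11, Adam22 and Adam23 shared 50.1% to 54.2% of aligned residues with each other and 32.1% to 33.7% with Adam9.

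A second set of sequences comes from the 3 Adamts genes whose proteins remove the amino-terminal propeptide of fibrillar procollagens, shown because their levels ran in opposite directions although the site is nearly the same. All 9 capital codons encode histidine.
Adamts2, chr11:50775403-50776134, plus strand: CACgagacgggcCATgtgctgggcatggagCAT
Adamts3, chr5:89707433-89707818, minus strand: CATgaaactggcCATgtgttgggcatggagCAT
Adamts14, chr10:61225465-61227123, minus strand: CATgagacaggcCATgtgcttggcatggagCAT
Each of these stretches runs over an exon junction. Over the whole protein, Adamts2 and Adamts3 shared 60.8% of aligned residues, Adamts3 and Adamts14 57.8%, and Adamts2 and Adamts14 54.3%.

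Library depth ranged from 2350941 to 9290237 assigned fragments. Levels are normalised counts-per-million (CPM), with the 3 libraries of a group in the order of their replicate numbers. Spearman correlations across genes within a group ranged from 0.887 to 0.968. The labels call the libraries of a group replicates without saying that each came from its own animal. The p-values therefore judge differences against the spread between these libraries and may not extend to other animals. Where a gene had no fragment, its level in that library was bounded by 3 fragments, which come to 0.337 to 1.23 CPM. Fold changes are log2 values with their standard error (SE). The quasi-likelihood test of edgeR gave the p-values, which were adjusted by Benjamini-Hochberg over 14337 genes that reached an FPKM of 1 (fragments per kilobase and per-million) in 3 or more libraries. A gene was called where the adjusted p was at most 0.05. In bulk tissue, fewer cells of a type and less RNA per cell cannot be told apart.

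Of the 79 genes, 46 passed that filter and were tested: 11 Mmp, 13 Adam, 18 Adamts and 4 Timp genes. In tumours against cerebellum 12 were called higher, or 26.1%, where 20.7% of all tested genes were called higher. Another 13 were called lower, or 28.3%, against 21.5% of all tested genes, and 21 were not called. The median log2 change of the 46 genes was 0.10 and that of all tested genes 0.01, while the median size of the change without its sign was 1.64 against 0.81. Libraries of tumours and cerebellum did not overlap for 24 of the 46 genes (52.2%), compared with 38.2% of all tested genes. A gene that passed the filter only through the tissue in which it was high had to differ, so these shares describe the genes and support nothing further. By family, 5 Mmp genes rose and 2 fell, 7 Adamts genes rose and 6 fell, 4 Adam genes fell and 1 Timp gene fell.

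**Figure D1:**
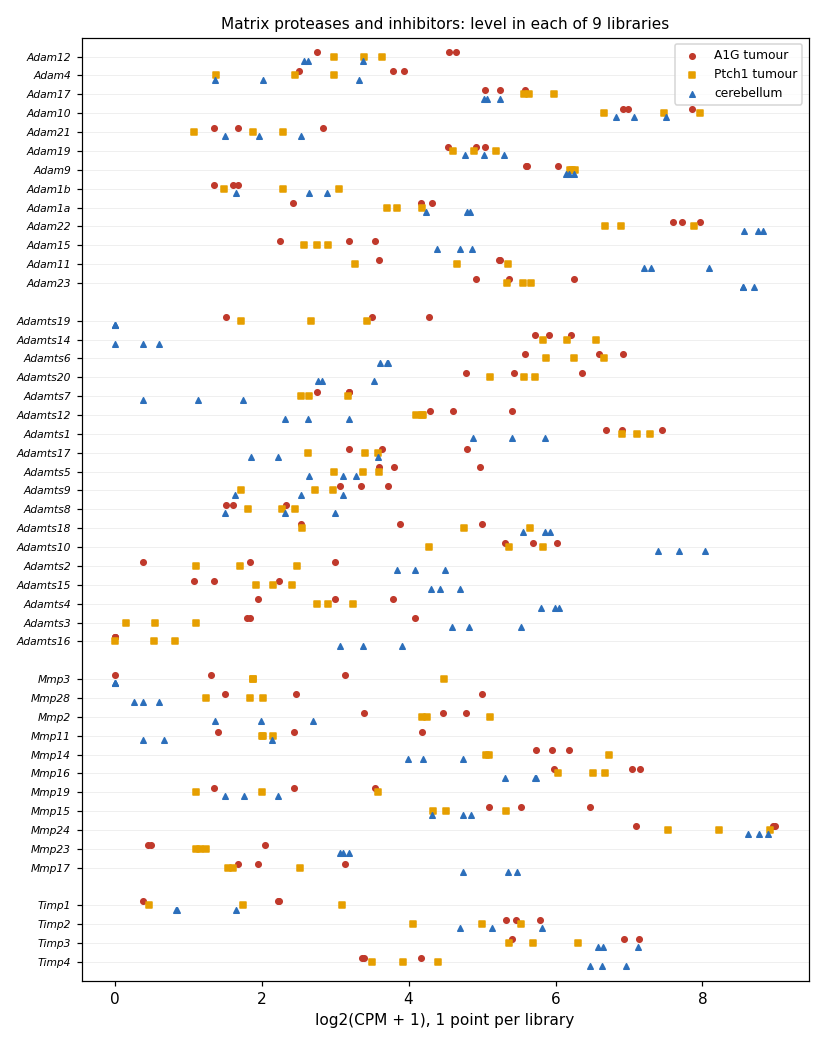
Level of the 46 tested genes in each library, as log2(CPM + 1) on the horizontal axis, with genes grouped by family on the vertical axis and ordered within a family by their change. Circles are A1G tumours, squares Ptch1 tumours and triangles cerebellum. Triangles stand to the left of all tumour symbols for genes such as Adamts14 and Adamts6, and to the right for genes such as Adam23 and Timp4.

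**Figure D2:**
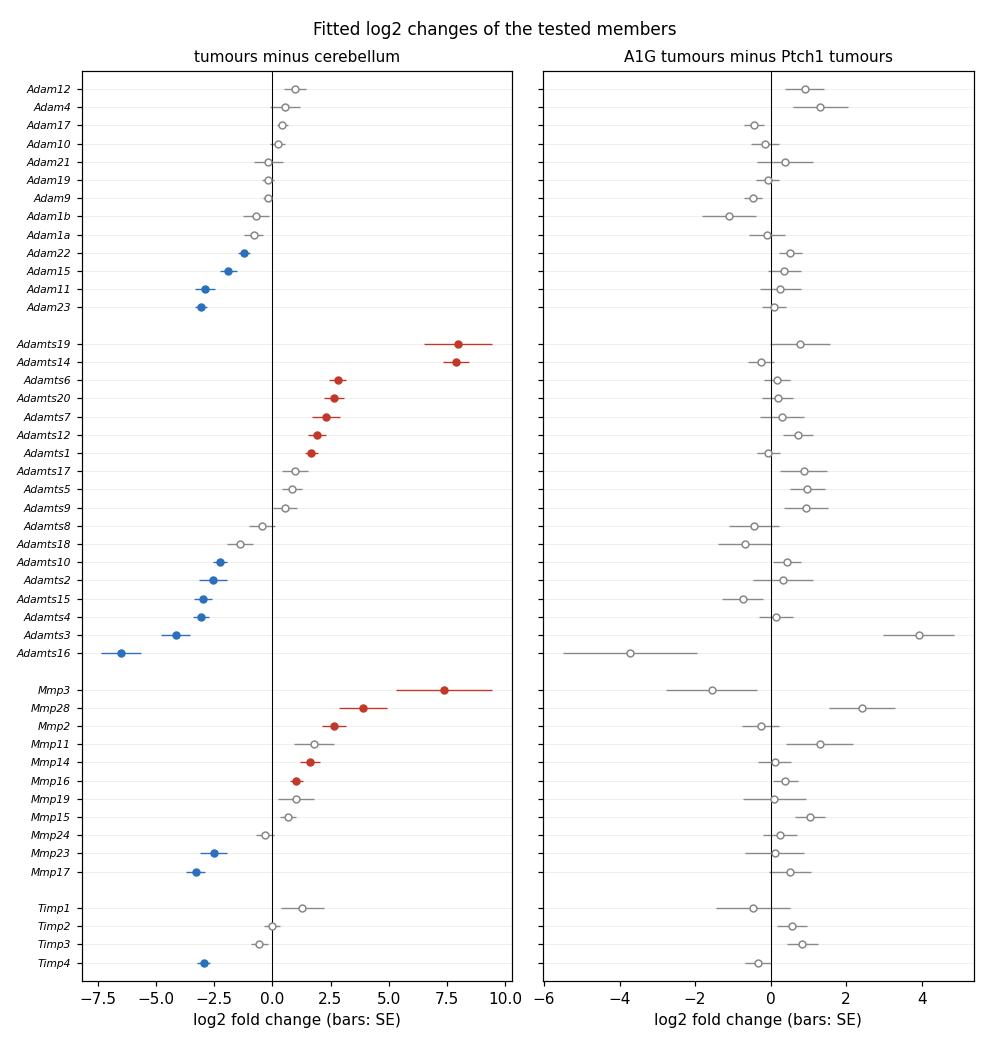
Fitted log2 fold change of each tested gene (horizontal axis, bars SE) for tumours minus cerebellum on the left and A1G minus Ptch1 tumours on the right. Filled points were called higher (red) or lower (blue) and open points were not called. On the left 12 genes are red and 13 blue, and on the right no point is filled. Fitted values of Adamts19, Mmp3 and Adamts16 depend on the prior count, since a group had no fragment.

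Among the inhibitors, 1 of 4 fell in tumours. Timp4 (chromosome 6, 115241892 to 115252205), an inhibitor known from heart and brain, stood at 16.96, 9.36 and 9.46 CPM in the A1G libraries, 10.3, 20.1 and 14.2 CPM in the Ptch1 libraries and 123, 97.9 and 87.7 CPM in cerebellum. All 6 tumour libraries lay below all 3 cerebellum libraries, with a log2 change of -2.94 (SE 0.28, adjusted p = 6.7e-06). Timp3, which binds to the matrix and also blocks ADAM17 and aggrecan-cutting ADAMTS enzymes, stood at 41.3, 121 and 139.8 CPM in the A1G libraries, 77.9, 50.8 and 40.2 CPM in the Ptch1 libraries and 94.5, 99.1 and 139 CPM in cerebellum. Its groups overlapped, and the log2 change was -0.56 (SE 0.35, adjusted p = 0.218). Timp2, which blocks MMP2 and also takes part in its activation by MMP14 at the cell surface, stood at 39.1, 54.3 and 43.2 CPM in the A1G libraries, 45.1, 31.01 and 15.7 CPM in the Ptch1 libraries and 24.95, 34.1 and 55.3 CPM in cerebellum, with all groups overlapping and a change of -0.03 (SE 0.34, adjusted p = 0.958). Timp1, an inhibitor induced in many injured tissues, was near the counting floor at 3.69, 0.312 and 3.701 CPM in the A1G libraries, 7.56, 2.36 and 0.383 CPM in the Ptch1 libraries and 0.788, 2.13 and 0.799 CPM in cerebellum. The tumour libraries were spread from 0.312 to 7.56 CPM across the range of cerebellum, and the change of 1.28 (SE 0.92, adjusted p = 0.288) was not called.

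The makeup of the inhibitors differed between tissues. Per unit of length, by FPKM within a library, Timp4 made up 69.01 ± 8.79% (SD, n = 3) of the 4 Timp genes in cerebellum, 21.2 ± 11.9% in A1G tumours and 34.4 ± 15.3% in Ptch1 tumours. Timp3 made up 20.3 ± 4.91% in cerebellum, 43.6 ± 17.8% in A1G tumours and 32.5 ± 3.87% in Ptch1 tumours. The summed level of the 4 genes was 253 ± 25.9 CPM in cerebellum, 161 ± 52.1 CPM in the A1G libraries and 105 ± 35.2 CPM in the Ptch1 libraries. Timp1, Timp3 and Timp4 lie within the synapsin genes Syn1, Syn3 and Syn2, on the opposite strand, and the sources used here do not give the strand setting of the counting. Timp4 shares 90 exon bases with Syn2 and Timp3 shares 1733 with Syn3, so their values are uncertain to that extent. Syn1 and Syn2 fell by 2.32 and 2.27 on the log2 scale (adjusted p = 0.00245 and 0.000385), and the change of Syn3 was 0.25 (adjusted p = 0.696). The part of reads from the host genes was not tested.

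Among the ADAM genes, none was called higher in tumours and 4 were called lower, 3 of them without the catalytic codons shown above. Adam23 (chromosome 1, 63445891 to 63596276), a neuronal LGI receptor, stood at 40.2, 29.3 and 74.9 CPM in the A1G libraries, 39.6, 49.7 and 45.97 CPM in the Ptch1 libraries and 373, 373 and 414 CPM in cerebellum. Every tumour library lay below every cerebellum library, with a log2 change of -3.05 (SE 0.27, adjusted p = 3.32e-06). Adam11 (chromosome 11, 102761439 to 102780262), a related surface protein of cerebellar neurons that also binds LGI proteins, stood at 11.1, 36.5 and 37.01 CPM in the A1G libraries, 24.3, 8.65 and 39.8 CPM in the Ptch1 libraries and 146, 157 and 272 CPM in cerebellum. Its groups of tumour and cerebellum libraries did not overlap, and the change was -2.89 (SE 0.44, adjusted p = 0.000219). Adam22 (chromosome 5, 8072352 to 8368160), the LGI1 receptor that anchors Kv1 channels and postsynaptic scaffolds, stood at 209.7, 192 and 249 CPM in the A1G libraries, 118, 101 and 235 CPM in the Ptch1 libraries and 454, 430.3 and 378 CPM in cerebellum. It was again lower in all 6 tumour libraries, with a change of -1.22 (SE 0.26, adjusted p = 0.00267). The fourth was Adam15, an enzyme with the zinc site that binds integrins, at 8.11, 3.74 and 10.7 CPM in the A1G libraries, 5.72, 6.52 and 4.98 CPM in the Ptch1 libraries and 19.96, 24.9 and 28.2 CPM in cerebellum and a change of -1.89 (SE 0.35, adjusted p = 0.000886), without overlap.

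The main sheddases were not called. Adam10 (chromosome 9, 70678997 to 70780229), which releases the outer part of Notch, cadherins and prion protein, stood at 121, 231 and 126 CPM in the A1G libraries, 176, 250.2 and 100 CPM in the Ptch1 libraries and 112, 133 and 181 CPM in cerebellum. The highest and the lowest value were both in Ptch1 tumours, with cerebellum inside that range, and the change was 0.24 (SE 0.32, adjusted p = 0.587). Adam17 (chromosome 12, 21323509 to 21373632), which releases TNF and ligands of the EGF receptor, stood at 46.8, 31.8 and 37.01 CPM in the A1G libraries, 48.8, 62.01 and 46.7 CPM in the Ptch1 libraries and 31.5, 36.8 and 32.6 CPM in cerebellum. The A1G and cerebellum libraries overlapped, while the 3 Ptch1 libraries were above all cerebellum libraries. The change over both tumour kinds was 0.42 (SE 0.24, adjusted p = 0.172). Adam17 shares 311 exon bases with Iah1 on the opposite strand, so part of its count is uncertain.

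The other 7 tested Adam genes were not called either. Adam9, a widely expressed sheddase, was among the more abundant at 47.3 to 76.3 CPM over all libraries, and its change was -0.20 (SE 0.20, adjusted p = 0.455). Adam19, known from heart and nerve development, was at 22.2 to 38.5 CPM with a change of -0.17 (SE 0.26, adjusted p = 0.624). Adam12, which takes part in muscle cell fusion, had 2 A1G libraries above all others, at 23.96, 22.5 and 5.76 CPM in the A1G libraries against 4.99, 5.17 and 9.38 CPM in cerebellum, and its change was 0.96 (SE 0.48, adjusted p = 0.127). Without A1G replicate 3 it was called, at 1.16 (adjusted p = 0.0328). Adam1a, Adam1b, Adam4 and Adam21, known mainly from sperm and testis, had log2 changes from -0.81 to 0.53. Adam1a and Adam1b share 72.6% of aligned residues and lie at 1 locus, and Adam1a shares exon bases with Mapkapk5 and Tmem116, so their counts are uncertain.

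The summed level of the Adam genes was lower in tumours, and the difference lay in the 3 receptor-type genes. The summed level of all 33 genes was 632 ± 32.3 CPM in the A1G libraries, 597 ± 36.8 CPM in the Ptch1 libraries and 1348 ± 108 CPM in cerebellum (SD, n = 3). Adam11, Adam22 and Adam23 together held 74.2 ± 1.86% of these fragments in cerebellum, 46.3 ± 7.68% in A1G tumours and 36.8 ± 13.6% in Ptch1 tumours. Without these 3 genes the sums were 338 ± 44.5 CPM, 377 ± 81.5 CPM and 349 ± 52.8 CPM, which differed by less than the spread between libraries. The split by receptor type was chosen after the values were seen. Of 10 genes for LGI ligands and for the channel and scaffold partners of these receptors, 9 were lower and 0 higher. Among all tested genes 21.5% were called lower and 20.7% higher. The median log2 change of the 10 genes was -2.97. Lgi2 fell by 4.14 (adjusted p = 0.000111), Lgi1 by 3.83 (adjusted p = 0.000133) and Lgi4 by 3.71 (adjusted p = 5.46e-06). The tenth, the auxiliary AMPA receptor subunit gene Cacng2, had a change of -0.74 (adjusted p = 0.0981). Markers of mature neurons were lower in the same tumour libraries: the summed level of 10 granule neuron markers was 654 to 3407 CPM in tumours and 9903 to 11410 CPM in cerebellum, that of 10 Purkinje cell markers 296 to 809.7 CPM and 9510 to 12270 CPM. All 9 called granule neuron markers and all 10 called Purkinje markers were lower. Their part in the fall of the Adam genes was not tested.

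**Figure D3:**
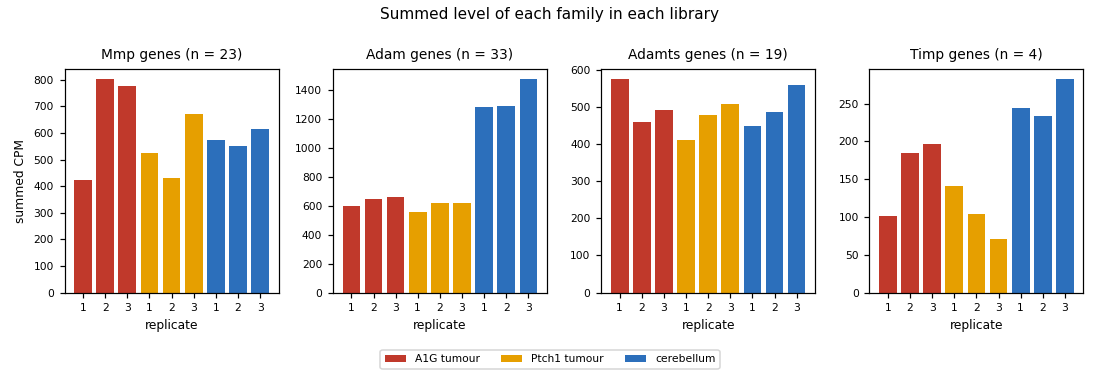
Summed level of each gene family in CPM (vertical axis, from 0) in each of the 9 libraries, coloured by group. Bars for the Adam genes stand at 555 to 657 CPM in the tumour libraries and 1282 to 1472 CPM in cerebellum, and the Mmp and Adamts sums of tumours and cerebellum overlap.

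The ADAMTS genes changed in both directions within groups of close relatives. The grouping follows the known roles of the proteins and was chosen after the values were seen. The procollagen N-propeptidases, whose zinc sites are printed above, ran in opposite directions. Adamts14 (chromosome 10, 61197112 to 61273438) stood at 59.4, 51.8 and 73.2 CPM in the A1G libraries, 70.5, 55.8 and 93.1 CPM in the Ptch1 libraries and 0.525, 0.304 and 0 CPM in cerebellum. It had 3 fragments in all of cerebellum and at least 51.8 CPM in every tumour library. The tumour mean was 271.5 times the pooled cerebellum rate of 3 fragments over the summed depth of its 3 libraries, with a 95% interval of 92.9 to 1317 that covers counting error in cerebellum only (adjusted p = 6.69e-07). The fitted log2 change was 7.89, or 8.77 without cerebellum replicate 1 and 7.21 without cerebellum replicate 3. Adamts2 (chromosome 11, 50602084 to 50807573) ran the other way, at 2.58, 0.312 and 6.99 CPM in the A1G libraries, 1.15, 2.25 and 4.597 CPM in the Ptch1 libraries and 16.02, 13.4 and 21.6 CPM in cerebellum, with no overlap and a change of -2.57 (SE 0.60, adjusted p = 0.00444). Adamts3 (chromosome 5, 89677087 to 89883334) was likewise lower in every tumour library, at 2.58, 2.495 and 16.04 CPM in the A1G libraries, 0.458, 0.112 and 1.15 CPM in the Ptch1 libraries and 23.1, 27.4 and 45.1 CPM in cerebellum, with a change of -4.16 (SE 0.63, adjusted p = 0.000212). Without A1G replicate 3, which had the highest tumour value of both, the changes were -3.16 for Adamts2 and -4.88 for Adamts3. By FPKM within a library, Adamts14 made up 78.0% to 97.4% of the 3 genes in the 6 tumour libraries and 0 to 1.36% in cerebellum.

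A further pair of relatives is Adamts6 and Adamts10, which act on fibrillin and adhesion complexes and share 60.2% of aligned residues. Adamts6 (chromosome 13, 104287835 to 104496695) stood at 120.2, 46.8 and 95.8 CPM in the A1G libraries, 74.9, 101 and 57.5 CPM in the Ptch1 libraries and 12.1, 12.2 and 11.2 CPM in cerebellum. The lowest tumour library was well above cerebellum, and the change was 2.80 (SE 0.35, adjusted p = 5.17e-05). Adamts10 (chromosome 17, 33524204 to 33553782) stood at 38.7, 63.9 and 50.99 CPM in the A1G libraries, 18.3, 40.2 and 55.9 CPM in the Ptch1 libraries and 167, 204 and 262 CPM in cerebellum. All tumour libraries were below all cerebellum libraries, with a change of -2.26 (SE 0.31, adjusted p = 9.73e-05). The share of Adamts6 in the pair, by FPKM, was 38.0% to 77.4% in tumour libraries and 3.45% to 5.71% in cerebellum.

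Of the ADAMTS enzymes known to cut aggrecan, versican and related proteoglycans, 2 rose, 2 fell and 3 were not called. Adamts1 (chromosome 16, 85793827 to 85803113), a versican-cutting enzyme also known to restrain vessel growth, stood at 173, 119 and 102 CPM in the A1G libraries, 119, 155 and 137 CPM in the Ptch1 libraries and 56.7, 41.4 and 28.4 CPM in cerebellum. All tumour libraries exceeded all cerebellum libraries and the change was 1.67 (SE 0.29, adjusted p = 0.000553). Adamts20, which acts in the migration of pigment cell precursors, stood at 81.5, 26.5 and 42.4 CPM in the A1G libraries, 33.4, 51.8 and 46.7 CPM in the Ptch1 libraries and 10.5, 6.08 and 5.79 CPM in cerebellum and rose by 2.65 (SE 0.42, adjusted p = 0.000279), again without overlap. Adamts4 (chromosome 1, 171250421 to 171260637), aggrecanase 1, ran in the opposite direction at 7.004, 12.8 and 2.88 CPM in the A1G libraries, 8.47, 6.52 and 5.75 CPM in the Ptch1 libraries and 65.4, 54.7 and 62.9 CPM in cerebellum. Its change was -3.06 (SE 0.35, adjusted p = 2.57e-05) and the groups did not overlap. Adamts15, another proteoglycan-cutting enzyme, stood at 1.11, 1.56 and 3.701 CPM in the A1G libraries, 4.35, 2.81 and 3.45 CPM in the Ptch1 libraries and 20.5, 24.9 and 18.8 CPM in cerebellum, a change of -2.97 (SE 0.39, adjusted p = 8.23e-05) without overlap. Adamts5, Adamts8 and Adamts9 had changes of 0.84, -0.45 and 0.53 and overlapping libraries. Adamts7 shares 122 exon bases with Tbc1d2b, so part of its count is uncertain.

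Among the remaining Adamts genes, Adamts7 and Adamts12, relatives that cut the cartilage protein COMP, both rose. Adamts7 stood at 8.11, 8.11 and 5.76 CPM in the A1G libraries, 4.81, 5.28 and 8.05 CPM in the Ptch1 libraries and 2.36, 0.304 and 1.198 CPM in cerebellum, close to the floor in cerebellum, and rose by 2.32 (SE 0.60, adjusted p = 0.00822), or 3.002 without cerebellum replicate 1. Adamts12 stood at 23.2, 41.5 and 18.5 CPM in the A1G libraries, 17.2, 17.3 and 16.1 CPM in the Ptch1 libraries and 8.14, 5.17 and 3.99 CPM in cerebellum and rose by 1.91 (SE 0.39, adjusted p = 0.001696). Neither gene had a tumour library within the range of cerebellum. Adamts16 (chromosome 13, 70727802 to 70841811), an enzyme known from kidney and gonad, was near or at 0 in every tumour library, at 0, 0 and 0 CPM in the A1G libraries, 0, 0.449 and 0.766 CPM in the Ptch1 libraries and 7.35, 13.99 and 9.38 CPM in cerebellum. It had no fragment in A1G tumours, at least 9.38-fold lower than cerebellum by the floor of 3 fragments per library, and the adjusted p for both tumour kinds was 0.000154. Its relative Adamts18 had a change of -1.39 (SE 0.58, adjusted p = 0.0707) that was not called, with overlapping libraries. It was called without A1G replicate 3 (-1.79, adjusted p = 0.0275) or without Ptch1 replicate 3 (-1.78, adjusted p = 0.0254). Adamts19, a gene of heart valves and gonad, had no fragment in cerebellum and 18.4, 1.87 and 10.3 CPM in the A1G libraries and 2.29, 9.77 and 5.36 CPM in the Ptch1 libraries. It was at least 10.4-fold higher in tumours by the same floor (adjusted p = 0.00141). Adamts17, its relative, had a change of 0.97 (SE 0.56, adjusted p = 0.183) with overlap and was not called, but without cerebellum replicate 3 it was, at 1.88 (adjusted p = 0.0378).

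**Figure D4:**
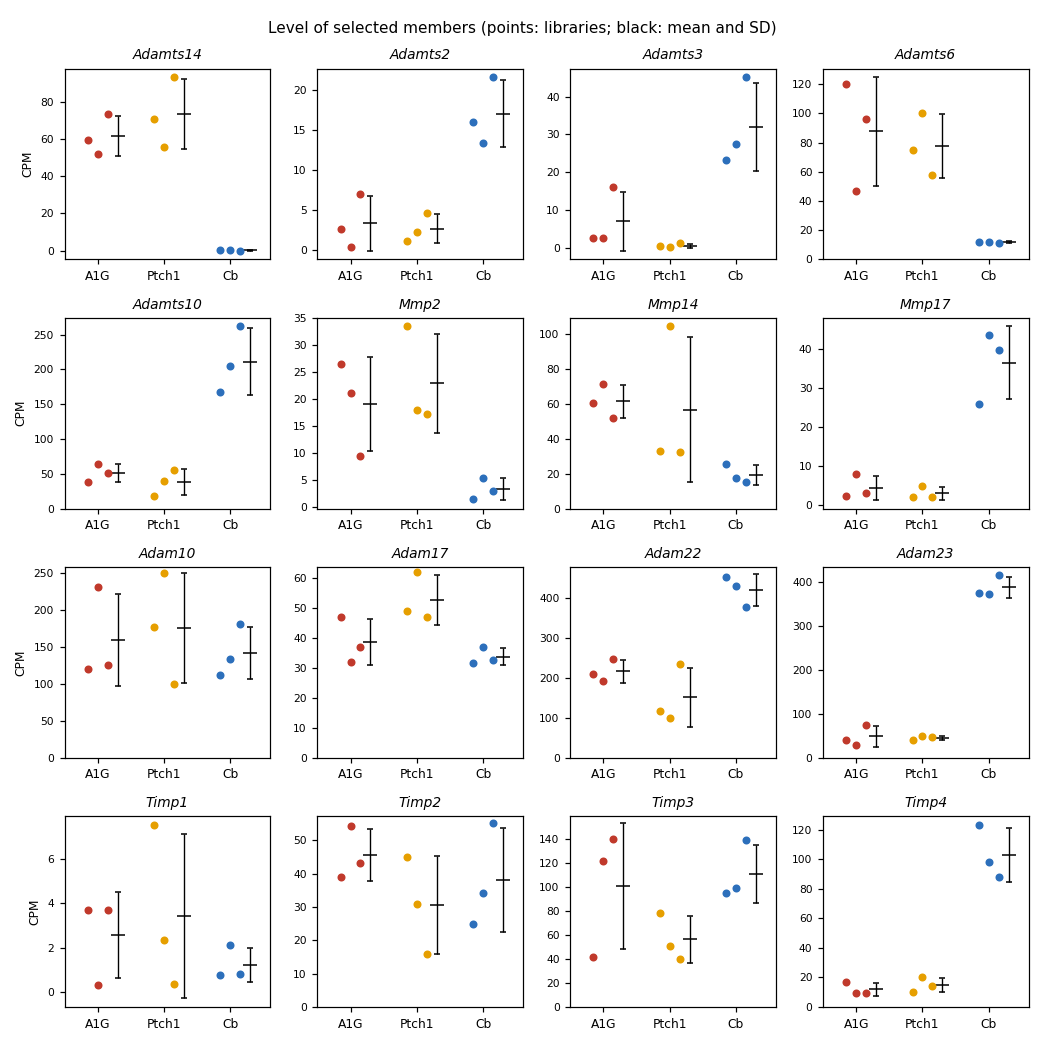
Level in CPM (vertical axis) of 16 genes in A1G tumours, Ptch1 tumours and cerebellum (Cb), 1 point per library, with the mean and SD in black. Adamts14 and Adamts6 are high in tumours while Adamts2, Adamts3 and Adamts10 are high in cerebellum, and the groups of Adam10 and Timp2 overlap.

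The Mmp genes that rose included the gelatinase Mmp2 and its activator Mmp14. Mmp2 (chromosome 8, 92827291 to 92853420), which cuts denatured collagen and basement membrane collagen, stood at 26.5, 21.2 and 9.46 CPM in the A1G libraries, 33.4, 17.97 and 17.2 CPM in the Ptch1 libraries and 1.58, 5.47 and 2.995 CPM in cerebellum. All tumour libraries were above all cerebellum libraries and the change was 2.65 (SE 0.51, adjusted p = 0.00122). Mmp14 (chromosome 14, 54431612 to 54445364), a membrane-bound enzyme that cuts collagen and activates the MMP2 precursor, stood at 60.8, 71.4 and 52.2 CPM in the A1G libraries, 33.2, 105 and 32.2 CPM in the Ptch1 libraries and 25.7, 17.3 and 14.98 CPM in cerebellum. Ptch1 replicate 2 had the highest value, no tumour library reached down to cerebellum, and the change was 1.62 (SE 0.41, adjusted p = 0.007002). Mmp9 (chromosome 2, 164940780 to 164955850), the other gelatinase and a product of neutrophils and macrophages, was too low to test, with 52 fragments in all and 3.69, 0 and 0.411 CPM in the A1G libraries, 2.06, 0.225 and 1.92 CPM in the Ptch1 libraries and 2.101, 1.22 and 2.596 CPM in cerebellum. Its groups overlapped.

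Other membrane-type enzymes did not move as one. Mmp16, related to Mmp14 with 57.2% of aligned residues shared, stood at 131, 62.1 and 141 CPM in the A1G libraries, 89.98, 64.7 and 101 CPM in the Ptch1 libraries and 51.7, 52.0 and 38.7 CPM in cerebellum and rose by 1.03 (SE 0.30, adjusted p = 0.0138). Without cerebellum replicate 3 the call was lost (0.91, adjusted p = 0.0560). Mmp24, which cuts N-cadherin at neuronal contacts, was the most abundant of all 46 genes per unit of length in each group, at a mean FPKM of 93.3 in A1G tumours, 78.1 in Ptch1 tumours and 102.5 in cerebellum. Its libraries stood at 135, 498 and 509 CPM in the A1G libraries, 297, 184 and 485 CPM in the Ptch1 libraries and 435, 393 and 474 CPM in cerebellum and overlapped, with a change of -0.31 (SE 0.39, adjusted p = 0.552). Mmp15 was not called either, at 0.67 (SE 0.36, adjusted p = 0.152). Mmp17 (chromosome 5, 129584169 to 129611099), which is held to the membrane by a lipid anchor, fell, with 2.21, 7.797 and 2.88 CPM in the A1G libraries, 2.06, 4.72 and 1.92 CPM in the Ptch1 libraries and 25.7, 43.5 and 39.7 CPM in cerebellum. The change was -3.30 (SE 0.42, adjusted p = 6.36e-05) without overlap. Mmp23 was also lower in every tumour library, at 0.369, 3.12 and 0.411 CPM in the A1G libraries, 1.37, 1.24 and 1.15 CPM in the Ptch1 libraries and 8.14, 7.602 and 7.39 CPM in cerebellum, a change of -2.53 (SE 0.58, adjusted p = 0.00399), or -3.40 without A1G replicate 2. Mmp24 shares 637 exon bases with BC029722, which the files list separately.

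The rise of the remaining called Mmp genes rested on few fragments or on single libraries. Mmp3 (chromosome 9, 7445822 to 7455975), stromelysin 1, had no fragment in cerebellum and stood at 1.47, 0 and 7.81 CPM in the A1G libraries and 21.3, 2.696 and 2.68 CPM in the Ptch1 libraries. Ptch1 replicate 1 held the largest part, A1G replicate 2 had no fragment, and the tumour mean was at least 7.82-fold above the floor in cerebellum (adjusted p = 0.0148). The fitted log2 change was 6.44 without A1G replicate 3 and 6.52 without Ptch1 replicate 1, against 7.39 over all libraries. Mmp28, epilysin, an enzyme of skin and macrophages, stood at 1.84, 30.9 and 4.52 CPM in the A1G libraries, 1.37, 2.58 and 3.07 CPM in the Ptch1 libraries and 0.525, 0.304 and 0.1997 CPM in cerebellum. A1G replicate 2 stood apart from the others, and the change of 3.89 (SE 1.04, adjusted p = 0.00946) was 2.91 without it (adjusted p = 0.0125). Mmp11 and Mmp19 were not called, with changes of 1.78 (SE 0.86, adjusted p = 0.114) and 1.01 (SE 0.76, adjusted p = 0.307). Without cerebellum replicate 1 Mmp11 was called, at 3.32 (adjusted p = 0.0272). Mmp28 shares 466 exon bases with 1700020L24Rik, Mmp19 789 with Tmem198b, and Mmp11 155 with Chchd10.

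A cluster of 10 Mmp genes on chromosome 9, from 7272514 to 7699585, held collagenases, stromelysins and matrilysin. Of these genes 1, Mmp3, was tested. The cluster had 216 fragments in the 6 tumour libraries and 18 in the 3 cerebellum libraries, or 69 and 18 without Mmp3. These counts are not scaled for the number and depth of libraries, so their ratio is not a fold change. Ptch1 replicate 1 alone held 93 fragments of Mmp3. Mmp12 had 30 fragments and Mmp13 had 26, the highest of the rest. In all, 33 of the 79 genes were too low to test. Of these, 9 had no fragment in any library, 15 had 1 to 10 fragments and 9 had more. Adam8, a protease of white blood cells, led with 60 fragments and at most 5.76 CPM, in A1G replicate 3. Among the untested Adam genes are several known from testis, such as Adam2 and Adam3, both without a fragment.

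Set against cerebellum separately, both tumour kinds gave similar counts, and the comparisons share the cerebellum libraries. In A1G tumours 14 of 46 genes were called higher, where 16.3% of all tested genes were, and 13 lower, where 16.1% were. In Ptch1 tumours 10 were called higher against 20.2% of all tested genes, and 13 lower against 19.7%. Adamts14 was 248 times the pooled cerebellum rate in A1G tumours (95% counting interval 84.8 to 1202) and 295 times in Ptch1 tumours (101 to 1431). Adam23 changed by -3.01 in A1G tumours and by -3.10 in Ptch1 tumours. Timp4 changed by -3.11 and -2.78, and Mmp2 by 2.52 and 2.78. The 4 genes called in A1G tumours and missed in Ptch1 tumours were Adamts5 (1.33 and 0.35), Mmp15 (1.19 and 0.15), Mmp16 (1.23 and 0.84) and Mmp28 (5.10 and 2.68). None of these 4 differed between the tumour kinds past the test, and their calls moved with single libraries. In A1G tumours the call of Adamts5 was lost on leaving out any of 7 libraries (down to 0.73, adjusted p up to 0.241), that of Mmp15 any of 6 (down to 0.70, adjusted p up to 0.179), and that of Mmp16 without A1G replicate 3 (1.02, adjusted p = 0.0563). The change of Mmp28 fell to 3.13 without A1G replicate 2. In Ptch1 tumours Mmp16 and Mmp28 were each called on leaving out either of 2 libraries. Of all A1G calls 9 were lost on leaving out some single library, Adam22, Adamts2, Adamts3, Mmp3, Mmp14 and Mmp23 being the others, and of the Ptch1 calls 3, Adamts2, Adamts7 and Mmp14.

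Between A1G and Ptch1 tumours edgeR called 0 of the 46 genes higher and 0 lower, where 0.0139% and 0.0% of all tested genes were called. At an unadjusted p of at most 0.05, 3 of 46 passed (6.52%) and 1525 of all 14337 (10.6%). DESeq2 called 1 of the 46, Adamts3, where it called 154 of all 14301 genes with an adjusted p (1.08%), and limma on FPKM called 0. Libraries did not overlap for 4 of 46 genes (8.70%), where 15.5% of all tested genes did not: Adamts3, Adamts9 and Adamts12 were higher and Adam9 lower in A1G tumours. Adamts3 had the smallest p, with 2.58, 2.495 and 16.04 CPM in the A1G libraries and 0.458, 0.112 and 1.15 CPM in the Ptch1 libraries. Replicate 3 of the A1G tumours was the highest and the difference was 3.92 (SE 0.94, adjusted p = 0.268). Leaving out 1 library gave 2.49 to 4.69, with adjusted p from 0.130 to 0.470 in edgeR. Under DESeq2 its adjusted p was 0.00596. Both tumour kinds had lower Adamts3 than cerebellum.

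The next smallest p-values were those of Mmp28, at 2.42 (SE 0.88, adjusted p = 0.378), and Mmp15. Mmp28 rested on A1G replicate 2, and the other A1G libraries lay in or near the Ptch1 range. Mmp15, a membrane-type enzyme, stood at 45.3, 87.6 and 33.3 CPM in the A1G libraries, 21.8, 39.2 and 19.2 CPM in the Ptch1 libraries and 18.9, 25.9 and 27.95 CPM in cerebellum, with overlap between the tumour kinds and a difference of 1.04 (SE 0.40, adjusted p = 0.397). Adamts5, aggrecanase 2, stood at 12.9, 30.3 and 11.1 CPM in the A1G libraries, 9.39, 11.1 and 6.896 CPM in the Ptch1 libraries and 5.25, 7.602 and 8.79 CPM in cerebellum, with overlap and a difference of 0.97 (SE 0.46, adjusted p = 0.484) between the tumour kinds. Adamts16 had no fragment in A1G tumours and at most 4 fragments in a Ptch1 library (adjusted p = 0.491), and no fold is given.

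The other genes of the protease system were taken from lists. For scale, 20.7% of all tested genes were called higher and 21.5% lower in tumours against cerebellum. Of 19 tested activators, partners and other inhibitors of these proteases, 11 fell and none rose in tumours, with a median log2 change of -1.17. The largest were Spock3 and Spock1, matrix proteoglycans that inhibit MMP activity in cell culture, at -6.71 (SE 0.47, adjusted p = 7.42e-07) and -4.56 (SE 0.47, adjusted p = 1.19e-05), and A2m, the plasma protease trap alpha-2-macroglobulin, at -4.74 (SE 0.31, adjusted p = 4.96e-07). In the plasminogen system 2 of 5 tested genes fell and none rose: Serpini1, neuroserpin, at -1.65 (SE 0.38, adjusted p = 0.00385), and its target Plat, tissue plasminogen activator, at -1.08 (SE 0.31, adjusted p = 0.0131). Of 5 ADAMTS-like genes, whose proteins lack the protease domain, 2 rose and none fell: Papln at 4.81 (SE 0.78, adjusted p = 0.000355) and Adamtsl3 at 2.26 (SE 0.39, adjusted p = 0.000608). No gene of these lists was called between A1G and Ptch1 tumours.

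The substrates moved in both directions. Of 19 tested matrix substrates, 6 rose and 6 fell, where 20.7% of all tested genes were called higher and 21.5% lower. Hapln2 and Hapln4, link proteins of nodes of Ranvier and perineuronal nets, changed by -6.05 (SE 0.54, adjusted p = 3.91e-06) and -6.03 (SE 0.42, adjusted p = 6.69e-07), and Col1a1 by -2.53 (SE 0.42, adjusted p = 0.000398). Ncan (neurocan) and Vcan (versican), proteoglycans cut by ADAMTS enzymes, rose by 1.85 (SE 0.24, adjusted p = 6.06e-05) and 1.72 (SE 0.35, adjusted p = 0.00179). Bcan (brevican), a related proteoglycan of the same list, went the other way, with a change of -1.06 (SE 0.33, adjusted p = 0.021). Of 17 tested substrates of ADAM10 and ADAM17, 2 rose and 6 fell, the largest being Cx3cl1 at -3.83 (SE 0.34, adjusted p = 3.79e-06), Prnp at -2.38 (SE 0.24, adjusted p = 1.09e-05) and Hbegf at -1.93 (SE 0.32, adjusted p = 0.000405). In both lists no gene was called between the tumour kinds. A lower transcript level does not measure shedding or cleavage, for which these data hold no readout.

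Cell type markers moved with the tissue comparison across most lists. Among all tested genes 20.7% were called higher and 21.5% lower in tumours. All 9 granule neuron progenitor markers were higher in tumours, with sums of 2813 to 8094 CPM against 83.3 to 132 CPM in cerebellum. The lowest tumour sum was that of A1G replicate 2, and the other tumour libraries had 5545 CPM or more. A1G replicate 2 also had the highest mature granule neuron sum of the tumours, 3407 CPM. Among the tested genes, the same library held the highest level of Mmp11, Mmp15, Mmp28, Adamts5, Adamts9, Adamts12 and Adamts17. A link was not tested. All 10 oligodendrocyte markers were lower, at 73.0 to 459 CPM against 7948 to 8593 CPM, with Opalin at 0 in tumours, and all 7 tested interneuron markers were lower, at 9.96 to 89.2 CPM against 607 to 848 CPM, with Slc6a5 at 0 in tumours. The Purkinje marker Pcp2 was at 0 in Ptch1 tumours. Of 10 astrocyte and Bergmann glia markers 8 were lower (1163 to 2390 CPM against 6445 to 8576 CPM). Oligodendrocyte precursor markers were higher for 4 of 6 (471 to 1134 CPM against 205 to 221 CPM), and microglia and macrophage markers for 6 of 10 (174 to 400.1 CPM against 138 to 162 CPM). Of 10 endothelial markers 3 were lower (66.4 to 181 CPM against 219 to 259 CPM), of 7 tested pericyte and smooth muscle markers 3 (54.7 to 247 CPM against 116 to 151 CPM) and of 10 meningeal fibroblast markers 5, with 1 higher (145 to 315 CPM against 318 to 353 CPM). Of 5 tested choroid plexus and ependyma markers 3 were lower, at 6.87 to 83.6 CPM against 69.6 to 2766 CPM, where the highest value was cerebellum replicate 1. Neutrophil markers were at 0 to 4.12 CPM in every library, with Elane at 0 in all 9. Their part in the changes of the proteases was not tested. Between the tumour kinds 1 Purkinje cell marker, Calb1, was called higher in A1G tumours, and none of the other lists held a call.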

How the data were processed

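RNA abundance was measured in 9 mouse libraries, which were run on Ion Proton chips that took 3 libraries each, per the labels' protocols. The deposited tables give, per gene, expected counts (fragments the authors assigned, unscaled, per the file headers), a signal column that the authors obtained by multiplying them by a library factor, and FPKM, computed by the authors from the scaled fragments. The labels and headers do not say whether tumour and cerebellum tables were scaled together, so FPKM served for the filter, for shares and ranks within a group, and for limma as an alternative. Bowtie 0.12.2 and mm10 are named in the submitters' processing notes, without their role; annotation, quantification and strand are not given in the sources used here.

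Expected counts were rounded and tested with edgeR 4.0.16 (R 4.3.3): TMM scaling over 9 libraries, 1 mean per group, quasi-likelihood test, Benjamini-Hochberg adjustment over 14337 genes that reached FPKM 1 in 3 or more libraries, threshold 0.05. Alternatives were DESeq2 1.42.0, limma 3.58.1, other scaling and filters, a replicate block and leaving out each library. Depth was 2350941 to 9290237 fragments. The fit was tested on simulated counts for tumours against cerebellum. It called 7% of true 2-fold changes and 81% of true 4-fold changes, with 7 false calls among 14337 genes. The simulation changed a far smaller share of genes than were called in the data, all above a minimum level. Adjustment over all genes was therefore stricter there, and these shares do not give the power of the real test. A gene that was not called may still have changed 2-fold. Coordinates and coding sequences come from the GENCODE M21 annotation (mm10), in which all 79 symbols were found.

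The genes, the lists and the tests were chosen with earlier results of these data known. Per-library values were given by rule for 13 genes whatever their values (Timp1 to Timp4, Mmp2, Mmp9, Mmp14, Adam10, Adam11, Adam17, Adam22, Adam23, Adamts1), for up to 8 called genes in each direction with the largest change against cerebellum and whose higher group averaged FPKM 1 or more, and for the 5 smallest p-values between tumour kinds; other genes were named by family role after their values were seen. Lists named up to 3 largest changes, while Ncan, Vcan, Bcan, Cacng2, Syn3 and some cell type markers were named outside that rule. The lists covered the plasminogen system, activators and partners, ADAMTS-like proteins, matrix and shedding substrates, LGI and Kv1 partners, synapsin hosts and 13 cell types. Cell types were not separated.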

Additional observations from a re-analysis of the deposited data

How the results depend on the processing

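The counts of called genes in tumours against cerebellum, 12 higher and 13 lower, ranged over all alternatives from 9 to 13 higher and from 12 to 15 lower. Those of A1G tumours against cerebellum ranged from 10 to 16 and from 9 to 14, and those of Ptch1 tumours from 8 to 12 and from 12 to 14. The alternatives did not all test the same genes, with 13134 genes under the stricter filter and 20100 without a filter. These ranges therefore do not rest on the same members throughout. Between A1G and Ptch1 tumours, 1 gene was called higher under DESeq2 and 1 without a filter on low values, in both cases Adamts3 (adjusted p = 0.00596 and 0.0222), and 0 otherwise. DESeq2 called 154 of all genes there. With any 1 library left out the count there was 0. The sign of Timp2 in tumours against cerebellum, never called, reversed under limma on log2(FPKM + 0.1) and on log2(FPKM + 1), at 0.0203 and 0.0228, and without a filter, at 0.0217, and ran from -0.26 to 0.36 with 1 library left out. Under limma on log2(FPKM + 1) Mmp3 (1.69, adjusted p = 0.0517) and Mmp28 (1.42, adjusted p = 0.0623) lost their call, and the cause was not tested. Other scaling moved the median of all genes by at most 0.05 on the log2 scale. With the replicate number as a block, 12 genes were called higher and 14 lower against cerebellum, and 0 differed between the tumour kinds. Deviations of same-numbered libraries correlated at -0.07 to 0.21, not every library correlated best with its own number, and the libraries share only a number. Depth limits genes near 3 fragments per library, among them Mmp9, Timp1 and the untested genes.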
